A study of Mus musculus with 8 samples.

Results

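Long noncoding RNAs (lncRNAs) are transcripts without a recognised protein, many of which are found in few tissues or cell types. The 10 lncRNAs described here (Wt1os, Gm28075, Gm47795, Gm15987, 4933421A08Rik, 4930546K05Rik, Gm37381, Mir205hg, Gm41162 and Gm45895) were chosen by name from 9578 lncRNAs among 32285 measured genes. They were chosen because, in an earlier analysis of the same nuclei, the share of nuclei that carried them was concentrated in 1 kidney cell type. The values that chose them were the share of nuclei with at least 1 unique molecular identifier (UMI, which marks 1 captured transcript), compared between cell types, and the number of UMIs, with their stability over genotype and time point in the 8 libraries in view. The order of cell types is therefore given as a description and without a test. The tests of genotype and time point further on run over all genes, and for these lncRNAs they are not independent of the choice.

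Kidneys of 8 male mice on a C57BL/6J background were measured by single-nucleus RNA-seq, 1 mouse per library and 2 libraries in each of 4 groups. Ctrl mice carried Bmal1 lox/lox alleles alone, and their cKOt littermates carried the Pax8-rtTA and LC-1 transgenes as well. With these, doxycycline switches on Cre recombinase to inactivate the circadian gene Bmal1 (Arntl) in the renal tubule. Whether podocytes or immune cells keep the gene was not checked here. Both genotypes received doxycycline at 2 mg/ml for 2 weeks from 8 weeks of age, and kidneys were taken at ZT4 or ZT16, which is 4 h or 16 h after lights on. The libraries held 8758 to 10975 nuclei and 36548873 to 54500820 UMIs, with a median of 3003.5 to 4830 UMIs per nucleus, and 78733 of 81391 nuclei (96.7%) received a cell type by marker genes. The level of Arntl in the kidney was 27.8 to 32.3 counts per 1000000 UMIs (CPM) in Ctrl at ZT4, 133 to 133 at ZT16, 165 to 238 in cKOt at ZT4 and 213 to 242 at ZT16, so that it was higher and not lower in the libraries labelled cKOt. The sources at hand do not say which part of the gene is deleted, so these 3′ counts do not check the genotype, which is taken from the labels throughout. In tubule nuclei at ZT4 the level was 17.0 to 22.8 CPM in Ctrl and 183 to 263 in cKOt, and in other nuclei 60.5 to 66.3 and 93.9 to 135. According to its methods, the study checked Bmal1 inactivation by PCR on a piece of kidney.

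The kidney filters blood in glomeruli, whose podocytes hold back protein, and then reclaims water and solutes along a tubule that passes from the proximal convoluted tubule (PCT) and the proximal straight tubule (PST) through the thin and thick limbs of Henle's loop, past the macula densa that senses salt, to the distal tubule and the collecting duct. Intercalated cells of the collecting duct handle acid and base, the alpha type secreting acid and the beta type secreting base. The urothelium lines the renal pelvis, and resident myeloid cells and lymphocytes make up the immune compartment.

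For each lncRNA the cell type with the highest share of positive nuclei in the Ctrl libraries is called its home cell type. The home was the podocyte for Wt1os, the PST for Gm28075, 4933421A08Rik and Gm41162, the thin ascending limb for 4930546K05Rik, the macula densa for Gm45895, the beta-intercalated cell (bIC) for Gm47795 and Gm37381, the urothelium for Mir205hg and the B cell for Gm15987. RefSeq annotation of the assembly GRCm38.p6 placed 6 of the 10: Wt1os at chr2:105076538-105126510 on the minus strand, Gm28075 at chr7:37140412-37156841 on the plus strand, Gm15987 at chr6:128952353-128975029 on the minus strand, 4930546K05Rik at chr9:42182238-42209231 on the minus strand, Mir205hg at chr1:193506460-193510210 on the minus strand and Gm41162 at chr14:59046163-59072002 on the plus strand. Of the others, Gm47795 lies on chromosome 9 (minus strand), 4933421A08Rik on chromosome 4 (plus strand), Gm37381 on chromosome 1 (minus strand) and Gm45895 on chromosome 8 (plus strand).

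Mir205hg is the host gene of microRNA 205, an epithelial microRNA, and its hairpin and both mature arms are shown because the arms lie inside the transcript that the urothelial nuclei carried. The hairpin spans chr1:193507463-193507530 on the minus strand of GRCm38.p6 (RefSeq). Capitals mark the 2 mature arms in the hairpin and the seed, bases 2 to 8, in each arm. The counts below are of the host transcript, and mature microRNAs were not measured.
microRNA 205: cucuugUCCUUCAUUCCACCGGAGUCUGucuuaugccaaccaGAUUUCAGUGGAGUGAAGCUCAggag
mmu-miR-205-5p: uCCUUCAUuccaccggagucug
mmu-miR-205-3p: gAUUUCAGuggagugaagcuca

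The start of Wt1os lies head to head with that of Wt1, which encodes a zinc finger transcription factor that podocytes need. In RefSeq the first bases of both genes are 19 bases apart on opposite strands, and the 18 bases between them stand in capitals in the stretch chr2:105126505-105126534, written along the minus strand. Wt1os begins at the first lower-case base after the capitals, and Wt1 runs the other way. In the GENCODE annotation used for overlaps the genes run into each other.
Wt1os and Wt1 starts: cacacaGCAGCCCTAGCCTAGCTCagcaaa

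The promoters of the other 5 lncRNAs with a RefSeq start are shown because their transcripts had 4 different homes: PST, B cell, thin ascending limb and urothelium. They lie at chr7:37140312-37140461 (plus strand), chr6:128974980-128975129 (minus), chr9:42209182-42209331 (minus), chr1:193510161-193510310 (minus) and chr14:59046063-59046212 (plus). The 100 bases before the start are in lower case and the first 50 transcribed bases in capitals. Gm28075 has 2 promoter windows, and the sequence shown is that of the window at the RefSeq start given above.
Gm28075: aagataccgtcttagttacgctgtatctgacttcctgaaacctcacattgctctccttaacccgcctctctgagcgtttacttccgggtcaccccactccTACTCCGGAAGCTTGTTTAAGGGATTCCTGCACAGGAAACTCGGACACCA
Gm15987: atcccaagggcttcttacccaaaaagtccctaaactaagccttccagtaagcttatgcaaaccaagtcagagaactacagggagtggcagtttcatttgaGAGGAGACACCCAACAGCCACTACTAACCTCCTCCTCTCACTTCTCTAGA
4930546K05Rik: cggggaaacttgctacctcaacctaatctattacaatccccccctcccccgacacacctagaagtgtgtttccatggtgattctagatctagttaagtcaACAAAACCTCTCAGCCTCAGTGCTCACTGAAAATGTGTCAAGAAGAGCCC
Mir205hg: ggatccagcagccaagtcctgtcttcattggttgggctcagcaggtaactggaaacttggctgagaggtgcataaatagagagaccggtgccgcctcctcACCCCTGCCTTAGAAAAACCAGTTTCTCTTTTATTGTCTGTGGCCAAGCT
Gm41162: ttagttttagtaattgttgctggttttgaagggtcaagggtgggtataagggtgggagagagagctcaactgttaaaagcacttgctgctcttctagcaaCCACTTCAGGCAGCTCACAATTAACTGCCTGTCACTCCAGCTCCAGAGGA

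The canonical E-box CACGTG, the motif bound by BMAL1 with CLOCK, was looked for on both strands in the RefSeq promoter windows of 300 bases. It was in none of the windows of the 6 lncRNAs and in 2349 of 32851 windows of all genes (7.15%). The TATA motif TATAAA, also sought on both strands, was in none of theirs and in 13.6% of all windows. At such shares, absence from the windows of 6 lncRNAs says little about them. Matches of the 2 motifs cannot overlap.

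How unevenly a gene was spread over the cell types was measured with a Gini coefficient over 21 named cell types (adipocytes, with 62 nuclei, left out), which is 1 when all positive nuclei are in 1 cell type and 0 when every cell type has the same share of them. In the Ctrl libraries together, 1811 of 7772 lncRNAs with a UMI had a coefficient of at least 0.95, and 9 of the 10 were among them, ranked 1 to 7, 10 and 40 by Ctrl UMIs. The exception was 4933421A08Rik, whose coefficient of 0.9495 fell just under that limit with the cell types as named here. Just inside by UMIs were 4930442L01Rik (0.953, 272 Ctrl UMIs) and Gm46224 (0.958, 270 Ctrl UMIs), which are no members, and just outside the limit were Gm7457 (0.940) and Gm46559 (0.944). The lncRNAs differed widely in how much of the home they filled. Wt1os was in 94.6% of Ctrl podocytes, while Gm41162 was in 9.40% of Ctrl PST nuclei.

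**Figure D1:**
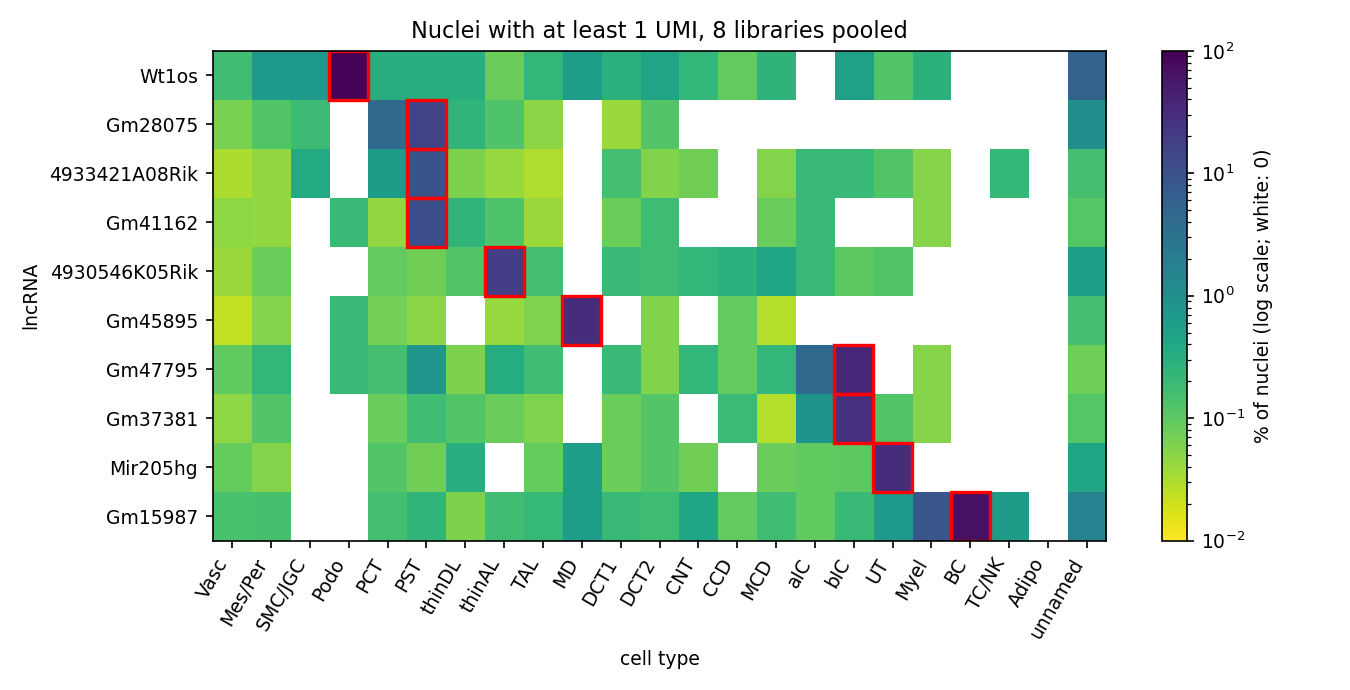
Share of nuclei with at least 1 UMI (%, log colour scale, white for 0) for the 10 lncRNAs (rows) in the named cell types and the unnamed nuclei (columns), with the 8 libraries pooled. Red boxes mark the home cell type, where the pooled share is between 9.44% (4933421A08Rik) and 91.3% (Wt1os), and the second darkest named cells are PCT for Gm28075, alpha-intercalated cells for Gm47795 and myeloid cells for Gm15987.

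Wt1os was the most abundant of the 10, with 3118 UMIs, and was a podocyte transcript. The podocytes (503 nuclei, 46 to 92 per library) carried the slit diaphragm gene Nphs1 (98.6% of nuclei). In the Ctrl libraries Wt1os was in 93.8 and 97.0% of podocytes at ZT4 and in 93.5 and 93.7% at ZT16. In the cKOt libraries it was in 79.7 and 93.3% at ZT4 and in 94.3 and 89.1% at ZT16. A single library, cKOt ZT4 replicate 1, was thus low, with an exact 95% interval of 68.8 to 88.2% from 74 nuclei, and the other 7 lay together. A positive podocyte held 5.25 UMIs on average, and the richest held 30. The next named cell type in Ctrl, the macula densa, had 1 positive nucleus of 87 (1.15%) at a similar median depth (3983 UMIs, against 3849 in podocytes).

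Wt1os and Wt1 shared the podocyte as their main cell type. Wt1 was in 98.8% of podocytes, and among 18667 genes with at least 100 UMIs the 3 whose mean CPM over 22 cell types was most like that of Wt1os were Wt1, Ddn and Nphs1, each with a Pearson r above 0.999. With most of the level in 1 cell type, such an r mainly restates the shared home. Ddn encodes the podocyte protein dendrin. Of the podocytes with Wt1os, 99.1% also had Wt1, and of those without it, 95.5%. Podocytes without Wt1os were shallower (median 2457 UMIs, against 3905). The sources used here do not say whether counting used the strand, so reads of the overlapping part cannot be assigned with certainty.

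A second place for Wt1os was found outside the named cell types. Of its UMIs, 283 (9.08%) lay in unnamed nuclei, mostly in a cluster of 297 nuclei led by Ms4a2, Kcnmb2, Wnt16 and G6pc2, where 118 nuclei (39.7%) had Wt1os and 188 (63.3%) had Wt1. The share in this cluster was 27.3 to 50.0% across the 8 libraries. No marker list fixed for the naming matched the cluster, so it stays unnamed.

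The 3 lncRNAs of the PST differed in how sharply they ended at its border. The PST (4090 nuclei, 415 to 614 per library) had the amino acid transporter gene Slc7a13 in 96.4% of nuclei and the oxysterol hydroxylase gene Cyp7b1 in 93.0%. Neither is found there alone, since Slc7a13 was in 43.0% of PCT nuclei and Cyp7b1 in 80.9% of cortical collecting duct nuclei, but 83.2% of the UMIs of Cyp7b1 lay in the PST. The nuclei counted as PCT (22112) fell into a part led by PCT markers (14072 nuclei) and a mixed part (8040 nuclei in 5 clusters). In the mixed clusters the PST list scored highest (1.46 to 1.97) and the PCT list low (-0.12 to 0.52), but they were counted as PCT because at least 1 of the 6 PST markers was not 2-fold above other nuclei or not in 10% of their own. Slc7a13 was in 81.4% of the mixed nuclei and Cyp7b1 in 23.8%, while the PCT transporter gene Slc5a12 was in 40.2%, against 96.9% of the PCT-led nuclei. The mixed part made up 41.1 and 44.3% of the PCT in Ctrl at ZT4 and ZT16 and 34.3 and 26.9% in cKOt.

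Gm28075 was not confined to the PST as named here. Its share was highest there, 16.3% in Ctrl against 4.19% of PCT nuclei. Over all libraries the PST held 746 of its UMIs, the mixed part 556 and the PCT-led part 523. In Ctrl the PST held 41.4% of them, and with the mixed clusters counted as PST, a choice made after seeing the data, it held 74.0%, so which of PST and PCT holds more depends on where these clusters are put. From the PCT-led part through the mixed part to the PST, its level was 6.69, 8.46 and 21.9 CPM. It was higher in the PST than in the mixed part in 8 of 8 libraries, and higher in the mixed than in the PCT-led part in 6 of 8. Gm28076, an lncRNA on the opposite strand of the same locus, had 7.60% positive PST nuclei and 3.23% positive PCT nuclei. The genes most like Gm28075 were all lncRNAs, Gm10787 (r 0.998), Gm36908 and Gm3137.

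4933421A08Rik and Gm41162 had a sharper border. The level of 4933421A08Rik was 0.192 CPM in the PCT-led part, 1.99 in the mixed part and 12.8 in the PST, higher at each step in 8 of 8 libraries. That of Gm41162 was 0.0767, 0.0913 and 15.6 CPM, higher in the PST than in the mixed part in 8 of 8 libraries but higher in the mixed than in the PCT-led part in only 3. Gm41162 had 92.9% of its Ctrl UMIs in the home cell type, the highest share of the 10. With the mixed clusters counted as PST it kept 92.9%, while 4933421A08Rik went from 68.4 to 92.5%. The border of 4933421A08Rik thus also depends on where these clusters are put. The mixed part and the PST had similar median depths, 7261.5 and 7279 UMIs, and the PCT-led part had 4735.

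**Figure D2:**
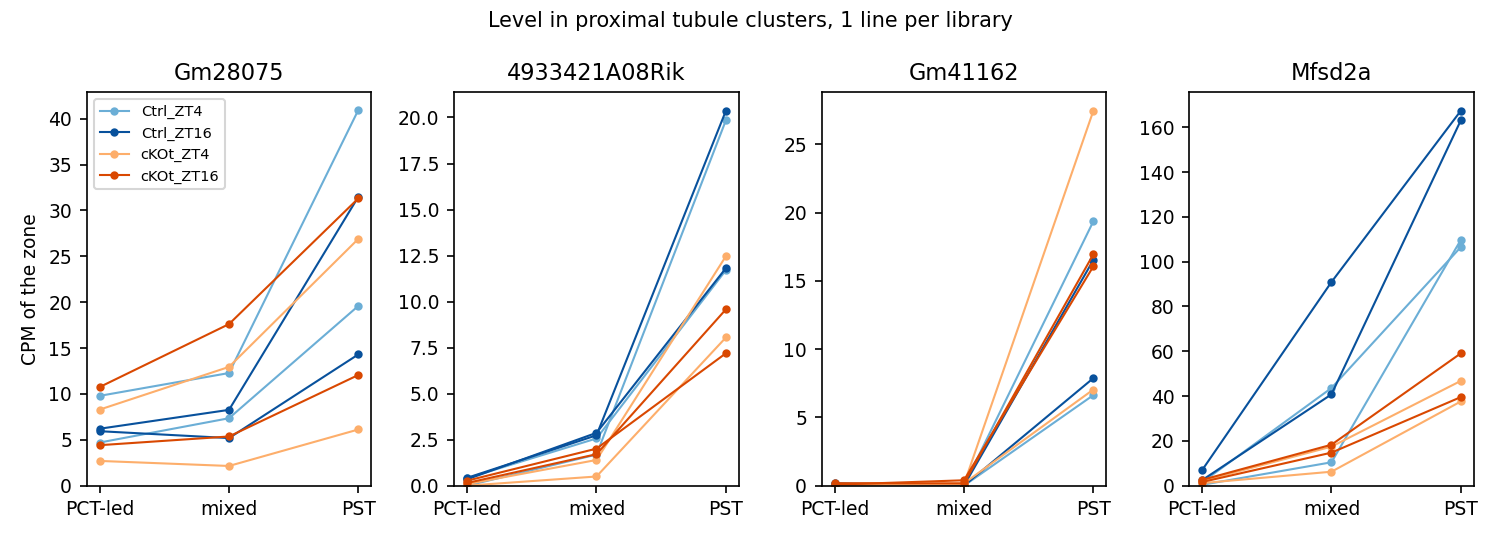
Level (CPM of the summed nuclei, linear axis from 0) of the 3 PST lncRNAs and of Mfsd2a in the PCT-led part of the proximal tubule, the mixed part and the PST, with 1 line per library coloured by group. All 8 lines rise from the mixed part to the PST in each panel, and only for Gm41162 are both PCT parts near 0 (0.0767 and 0.0913 CPM pooled).

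4933421A08Rik and Gm41162 each share their locus with a gene whose share of positive nuclei was also highest in the PST. 4933421A08Rik overlaps Mfsd2a, a lysophospholipid transporter gene on the opposite strand, which was in 38.8% of PST and 6.93% of PCT nuclei. The level of Mfsd2a was 31.1 CPM in the mixed part and 88.7 in the PST, a less sharp step than that of 4933421A08Rik. Mfsd2a was found in 49.5% of the PST nuclei with 4933421A08Rik and in 37.7% of those without. Gm41162 overlaps the lncRNA Gm33472 on the opposite strand, which was in 26.5% of PST nuclei, and in 63.5% of those with Gm41162 against 22% of those without. In both pairs the positive nuclei were deeper (median 8502 UMIs, against 7132.5 and 7060), and the part of depth in these shares was not tested. The strand setting of the counting is not stated in the sources at hand. Whether reads of each overlapping pair were counted apart is therefore not known here. The genes most like 4933421A08Rik were Gm30551, Mro and Slc9a8, and those most like Gm41162 were Mpped1, Olfr695 and Ccdc180.

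The PST lncRNAs varied strongly between mice of the same group. Gm28075 was in 20.2 and 14.2% of PST nuclei in Ctrl at ZT4, 12.1 and 19.7% in Ctrl at ZT16, 15.0 and 5.05% in cKOt at ZT4 and 26.6 and 8.32% in cKOt at ZT16. In the same order, Gm41162 was in 3.86, 13.8, 12.9, 5.82, 4.40, 19.6, 13.6 and 12.0%. 4933421A08Rik was in 6.75, 15.4, 16.4, 7.61, 5.21, 10.1, 8.86 and 5.48%. In Ctrl the 2 libraries with the higher share of Gm28075 (replicate 1 at ZT4 and replicate 2 at ZT16) were the 2 with the lower shares of both other lncRNAs. The exact 95% intervals of these shares did not overlap for Gm41162 (2.22 to 6.19% and 3.83 to 8.41%, against 10.8 to 17.2% and 10.1 to 16.1%). Those of 4933421A08Rik did not overlap either (4.53 to 9.60% and 5.32 to 10.5%, against 12.3 to 19.0% and 13.3 to 19.8%). Such intervals cover counting error and not the spread between mice. In cKOt at ZT4 the same exchange was seen between the replicates, and at ZT16 replicate 1 was the higher for all 3. Within single PST nuclei, Gm41162 was in 11.5% of those with Gm28075 and in 10.8% of those without. These same Ctrl libraries were the shallowest of the genotype (median 3003.5 and 3226 UMIs per nucleus, against 3950 and 4063). In cKOt the shallower libraries were replicate 1 at ZT4 (3344.5, against 4166) and replicate 2 at ZT16 (3443, against 4830). In every group the shallower library thus had the lower share of both Gm41162 and 4933421A08Rik. As CPM of the summed PST nuclei, Gm41162 had 6.63, 19.4, 16.5, 7.88, 7.04, 27.5, 16.1 and 17.0 in the order above. Gm28075 had 41.0, 19.6, 14.3, 31.5, 26.9, 6.13, 31.3 and 12.1 CPM. In CPM, which is scaled by depth, the exchange between these lncRNAs was thus also seen in Ctrl. In cKOt at ZT16 the shallower library had the higher CPM of Gm41162. The 2 shallower Ctrl libraries also had more of their PST nuclei in the larger of the 2 PST clusters (19.8 and 13.9%, against 4.17 and 1.73%). In that cluster Gm41162 was in 2.89% of Ctrl nuclei, against 10.1% in the smaller, and 4933421A08Rik in 4.62%, against 12.6%. Gm28075 was in 13.9%, against 16.5%, although these libraries had its higher shares. The part of depth and cluster in these differences was not tested.

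4930546K05Rik marked the thin ascending limb (2400 nuclei, 85 to 415 per library). The listed marker Sptssb was in 72.0% of these nuclei, while the marker Ptger3 was in 18.5% and higher in the thick ascending limb (78.9%). In Ctrl, 4930546K05Rik was in 19.7 and 17.9% of nuclei at ZT4 and in 25.1 and 15.9% at ZT16. In cKOt it was in 16.8 and 16.7% at ZT4 and in 27.1 and 17.1% at ZT16, so that the genotypes overlapped. The next cell type, the medullary collecting duct, reached 0.525% in Ctrl at a median depth of 3832.5 UMIs, against 3466 in the thin ascending limb. The lncRNA split the thin ascending limb itself. It was in 25% of the 1664 nuclei of 1 cluster and in 3.80% of the 736 nuclei of the other. The genes most like it were Prok2 (prokineticin 2), Megf11 and Nrip3, and no gene among the protein-coding neighbours on either side (Sorl1 at 52.2 kb, Sc5d at 41.9 kb) was confined like it.

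Gm45895 had the highest Gini coefficient, 0.995 in Ctrl, on the fewest UMIs, 159 in all libraries. Its home, the macula densa (172 nuclei, 11 to 33 per library), had Nos1, the neuronal nitric oxide synthase gene typical of these cells, in 89.0% of nuclei and Pappa2, a protease gene, in 54.1%. Of the other listed markers, Avpr1a was in 13.4% of these nuclei but in 24.8% of bIC nuclei, and Enox1 was in 94.8% and in 30.8% of thick ascending limb nuclei. Gm45895 was in 4 of 11 and 8 of 33 nuclei in Ctrl at ZT4 and in 5 of 15 and 16 of 28 at ZT16. It was in 4 of 21 and 7 of 22 nuclei in cKOt at ZT4 and in 6 of 22 and 4 of 20 at ZT16. These are shares of 36.4, 24.2, 33.3, 57.1, 19.0, 31.8, 27.3 and 20.0%, whose intervals are wide (37.2 to 75.5% for the highest, 5.45 to 41.9% for the lowest). In Ctrl 13 of the 21 cell types had no positive nucleus, and the next highest had 1 of 224 podocytes. Nos1, Pappa2 and Ndst4 were the genes most like Gm45895.

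Gm47795 and Gm37381 shared the beta-intercalated cell (986 nuclei, 100 to 147 per library), which had the bicarbonate exchanger gene Slc26a4 (pendrin) in 99.5% of nuclei, the receptor gene Insrr in 98.0% and the homeobox gene Hmx2 in 71.0%. Gm47795 was in 37.7 and 33.9% of bIC nuclei in Ctrl at ZT4, 58.3 and 40.5% in Ctrl at ZT16, 26.9 and 43.0% in cKOt at ZT4 and 24.8 and 29.9% in cKOt at ZT16. Gm37381 was in 23.8, 36.7, 27.5, 26.4, 24.6, 30.0, 18.4 and 27.2% in the same order. Gm47795 reached into the alpha-intercalated cells, with 5.24% positive nuclei in Ctrl, where replicate 2 at ZT16 had 11.5% and the other 3 libraries 2.52 to 4.00%, and 3.05% in cKOt (in Ctrl 1.82% with every nucleus thinned to 1000 UMIs, against 13.8% in bIC), while Gm37381 had 1.27% there (0.364% thinned, against 6.89%). Both genes were seen in 113 nuclei. Gm37381 was in 31.5% of the bIC nuclei with Gm47795 and in 23.8% of those without, and the former were deeper (median 6128 UMIs, against 4825).

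Genes most like the bIC lncRNAs shared their home, which mainly sets this likeness. Insrr, Rp1 and Gm37381 were most like Gm47795, and Gm28750, Hmx2 and Sult2a3 were most like Gm37381. Rp1, a gene known for its microtubule-binding protein in photoreceptors, lies 13.3 kb from Gm37381 on the same strand and was in 88.9% of bIC and 16.4% of alpha-intercalated nuclei. Rp1 was in 96.9% of the bIC nuclei with Gm37381 and in 86.0% of those without. The nearest coding gene to Gm47795, Gclc (glutathione synthesis, 21.2 kb away), was in 83.2% of bIC nuclei and in 95.4% of PST nuclei, and so was not confined.

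Mir205hg belonged to the urothelium (833 nuclei, 45 to 138 per library), where the uroplakin gene Upk1b was in 51.9% of nuclei and the basal keratin gene Krt5 in 9.36%, while the listed marker Psca was in 16.8% and in more nuclei of the thin ascending limb (36.5%). It was in 18.9 and 42.9% of urothelial nuclei in Ctrl at ZT4, 34.0 and 21.4% in Ctrl at ZT16, 25.4 and 27.9% in cKOt at ZT4 and 48.9 and 32.1% in cKOt at ZT16. The replicates of 1 group, Ctrl at ZT4, spanned more than the means of the genotypes (29.3% ± 11.2 in Ctrl and 33.6% ± 10.6 in cKOt, SD, n = 4 libraries each). The genes most like Mir205hg were Sprr1a (an epithelial small proline-rich protein), Upk1b and Clca3a2. Outside the home, 0.103% of nuclei were positive.

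Gm15987 joined B cells and part of the myeloid cells. By share of nuclei its home was the B cell (88 nuclei, 1 to 23 per library, with the B cell factor gene Pax5 in 90.9%), with 58 positive nuclei (65.9%). By UMIs the myeloid cells led, with 388 of 820 (47.3%) in 157 of 1857 nuclei (8.45%), against 182 (22.2%) in B cells. The UMI share of the B cell class depends on the clustering: it was 26.1% in Ctrl as named here and 68.9% with clusters from 50 principal components. The class of those clusters was a wider set, with 51.2% of its Ctrl nuclei positive, against 69.6% as named here. Which nuclei joined it was not looked at, so its 68.9% is not read as that of B cells alone. T and natural killer cells had 3 positive nuclei of 464 (0.647%) at a median depth of 1589 UMIs, close to that of B cells (1485.5) and myeloid cells (1846). Pax5 was in 0 of 1857 myeloid nuclei, which allows a share with a Pax5 UMI of up to 0.162% but sets no limit on nuclei that express it.

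Unnamed nuclei held 9.63% of the UMIs of Gm15987. It was in 17 of 83 nuclei (20.5%) of an unnamed cluster with the dendritic cell genes Xcr1 and Flt3 among its leading genes. In another, with the antibody genes Jchain, Igha and Igkc, it was in 13 of 58 nuclei (22.4%). In 2 unnamed clusters of very few nuclei, led by Siglech and by Ccr7, it was in 5 of 9 and 4 of 13. Cd74, the chaperone of MHC class II, was in 73.9% of B cells and 4.09% of T and natural killer cells, but in 79.2% of myeloid cells, far more of them than had Gm15987. The genes most like Gm15987 were H2-Ob, an MHC class II gene, Clec2g and the transcription factor gene Bcl11a. Clec2g, a C-type lectin gene on the opposite strand that overlaps Gm15987, was in 28.4% of B cells and 3.12% of myeloid cells. In B cells Gm15987 was in 15 of 23 and 11 of 16 nuclei in Ctrl at ZT4, 2 of 3 and 11 of 14 in Ctrl at ZT16, 10 of 13 and 4 of 12 in cKOt at ZT4, and 0 of 1 and 5 of 6 in cKOt at ZT16. The single B cell of cKOt ZT16 replicate 1 gives no usable share.

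**Figure D3:**
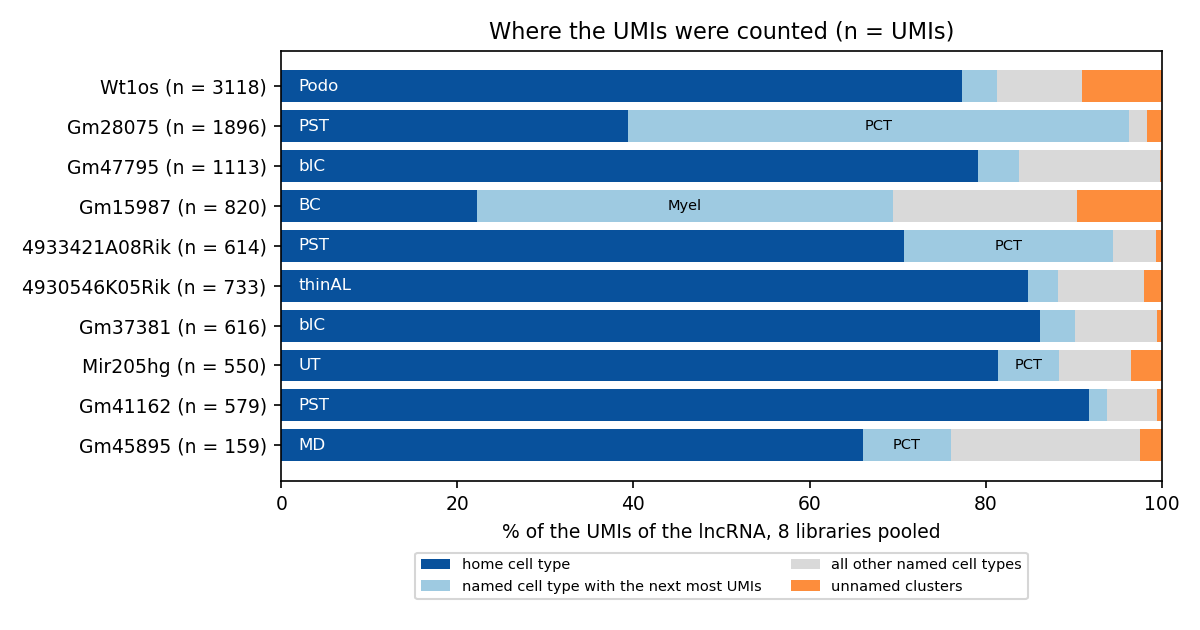
Where the UMIs of each lncRNA were counted (% of its UMIs, 8 libraries pooled, n the UMIs in all): the home cell type, the named cell type with the next most UMIs, all other named cell types and the unnamed nuclei. The home holds between 66.0% (Gm45895) and 91.7% (Gm41162) for 8 of the lncRNAs, but 39.3% for Gm28075 and 22.2% for Gm15987, where PCT and myeloid cells hold more.

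Positive nuclei outside the home were often flagged as doublets, droplets that may hold more than 1 nucleus. Doublets made up 5.37% of all nuclei and were kept. Among positive nuclei outside the home they made up 32.5% for Gm45895, 30.4% for 4930546K05Rik, 20.5% for Mir205hg, 17.8% for Gm37381, 15.1% for Wt1os and 13% for Gm47795. For Gm28075, Gm15987, Gm41162 and 4933421A08Rik they made up 9.75, 8.63, 6.52 and 5.92%, against 5.08 to 5.43% of all nuclei outside the homes. These shares pool the genotypes, which differed in both directions. For Gm45895 it was 13.3% of 15 nuclei in Ctrl and 44.0% of 25 in cKOt. For Gm47795 it was 8.18% in Ctrl and 19.3% in cKOt, and for Wt1os 18.0% and 11.9%. Because PST nuclei were deeper than most, shares were also taken after thinning each nucleus to 1000 UMIs, which left out 1141 nuclei (625 Ctrl and 516 cKOt). The Ctrl shares in the home then ranged from 1.08% (Gm41162) to 69.1% (Wt1os), and all 10 remained higher there than in the next cell type.

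In the cKOt nuclei the order of cell types is given as a description and without a test, since the choice of the lncRNAs and the clusters drew on all 8 libraries. Pooled over the 4 cKOt libraries, the share in the home cell type named in Ctrl was again the highest for all 10. The mean home share over these libraries was 89.1% ± 6.66 (SD, n = 4) for Wt1os, 33.6% ± 10.6 for Mir205hg, 31.1% ± 8.18 for Gm47795, 25.1% ± 4.95 for Gm37381 and 24.5% ± 6.09 for Gm45895. It was 19.4% ± 5.09 for 4930546K05Rik, 13.7% ± 9.51 for Gm28075, 12.4% ± 6.27 for Gm41162 and 7.41% ± 2.44 for 4933421A08Rik. The highest pooled share in another named cell type was 6.96% for Gm15987 (myeloid cells), 4.33% for Gm28075 (PCT), 3.05% for Gm47795 (alpha-intercalated cells) and 1.38% for Wt1os (smooth muscle and juxtaglomerular cells). For the other 6 it was between 0.0952% (Gm45895) and 0.692% (4933421A08Rik). The cell type next to the home was often another one than in Ctrl, and these low shares rest on few positive nuclei. For Gm15987 the home share was 59.4% of 32 B cells.

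**Figure D4:**
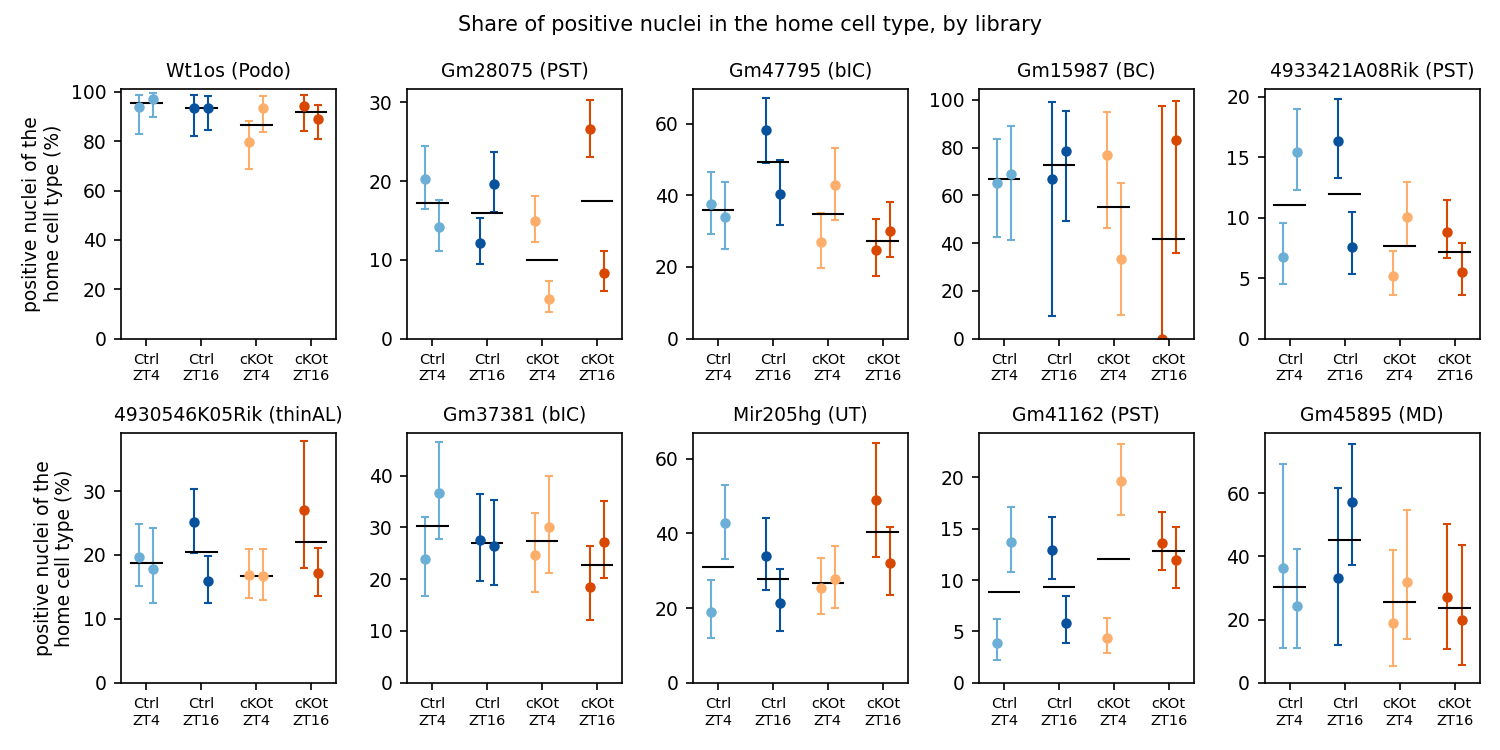
Share of positive nuclei in the home cell type (%, each panel with its own linear axis from 0) in each library, grouped by genotype and time point, with points for libraries, bars for exact 95% binomial intervals and black lines for group means. Libraries of all 4 groups overlap for most lncRNAs, Wt1os stays between 79.7 and 97.0%, and the B cell panel of Gm15987 has intervals that span most of the axis.

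Whether genotype or time of day changed the lncRNAs was asked first with UMIs summed per library over all nuclei. In such sums, fewer cells of a type and less RNA per cell cannot be told apart. By edgeR's quasi-likelihood test with Benjamini-Hochberg adjustment over all lncRNAs tested (limit 0.05), 0 of the 10 passed in any of 7 comparisons. Of all lncRNAs, 0.574% passed between ZT16 and ZT4 in Ctrl, 0.455% between them in cKOt, 0.768% between cKOt and Ctrl at ZT4 and 0.389% at ZT16. Over the mean of both time points 1.46% passed between the genotypes, and over the mean of both genotypes 3.31% passed between the time points. For the difference of the time change between genotypes 0.0% of 4926 lncRNAs passed, with 206 at an unadjusted p under 0.05. Against such small shares, 0 of 10 says little about these lncRNAs. DESeq2 also called 0 of the 10 in all 7. At an unadjusted p under 0.05, edgeR counted 4 of the 10 between genotypes over both time points, 2 between genotypes at ZT16 and 0 in the other 5, and DESeq2 counted 3, 2 and 0. Of all lncRNAs tested, 422 of 4926 had an unadjusted p under 0.05 by edgeR between genotypes over both time points, 327 of 4631 at ZT16 and 368 of 4685 at ZT4. Between time points it was 519 of 4706 in Ctrl, 517 of 4620 in cKOt and 770 of 4926 over both genotypes. Such counts over all lncRNAs were not made for DESeq2.

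The 4 between genotypes were Gm47795, Gm15987, 4933421A08Rik and Gm41162. Gm47795 had 4.10 and 2.49 CPM in Ctrl at ZT4, 4.95 and 3.54 in Ctrl at ZT16, 1.88 and 2.41 in cKOt at ZT4 and 1.94 and 2.32 in cKOt at ZT16, so that every Ctrl library lay above every cKOt library. Its log2 fold change, cKOt against Ctrl, was -0.63 (SE 0.20, adjusted p = 0.203 by edgeR). Gm15987 had 4.10, 2.59, 1.76 and 3.29 CPM in Ctrl and 2.32, 1.41, 1.25 and 1.37 in cKOt, with a log2 fold change of -0.74 (SE 0.28, adjusted p = 0.385). The cells that carried it were also fewer in cKOt, with 32 B cells against 56 in Ctrl and 819 myeloid nuclei against 1038, and the part of these numbers was not tested. For 4933421A08Rik it was -0.52 (SE 0.23, adjusted p = 0.527) and for Gm41162 it was 0.79 (SE 0.36, adjusted p = 0.576). With 1 library left out in turn, the log2 fold change ran from -0.80 to -0.43 for Gm47795, -1.01 to -0.37 for Gm15987, -0.71 to -0.38 for 4933421A08Rik and 0.24 to 1.32 for Gm41162. The median over the 10 was -0.07, and over all lncRNAs tested 0.01. The lncRNAs were picked on high Ctrl counts and with their stability in view, so neither a lower value in cKOt nor a missed limit is independent of the choice.

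Within the home cell type, counts were summed per library over its nuclei and tested over all genes, for the 6 homes with at least 10 nuclei in every library. B cells were too few, so Gm15987 was not tested. Between genotypes, 1 of 9 lncRNAs passed, Gm47795 in the bIC, where 0.641% of 10604 genes passed. Of the genes tested, 0.0433% passed in podocytes, 1.84% in the PST, 0.525% in the thin ascending limb, 0.019% in the urothelium and 0.0% in the macula densa, where 161 genes had an unadjusted p under 0.05. Between time points 0 of 9 passed, with 0 at an unadjusted p under 0.05 by edgeR and by DESeq2. Of all genes, edgeR counted 497 of 6935 at that unadjusted limit in podocytes, 1259 of 14533 in the PST, 743 of 10604 in the bIC, 774 of 11989 in the thin ascending limb, 634 of 10538 in the urothelium and 241 of 3867 in the macula densa. Of all genes, 0.101% passed between time points in podocytes, 0.138% in the PST, 0.0377% in the bIC, 0.0751% in the thin ascending limb, 0.038% in the urothelium and 0.0776% in the macula densa.

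The pass of Gm47795 in the beta-intercalated cells was not stable and, as for the whole kidney, rests on Ctrl values that had a part in its choice. Its level was 197 and 130 CPM in Ctrl at ZT4, 262 and 177 in Ctrl at ZT16, 84.5 and 137 in cKOt at ZT4 and 85.7 and 119 in cKOt at ZT16. The groups were close to separate, with only cKOt ZT4 replicate 2 above the lowest Ctrl library. The log2 fold change was -0.84 (SE 0.19, adjusted p = 0.0431 by edgeR), near the limit. DESeq2 gave -0.84 with an adjusted p of 0.0756, and over the 14 alternatives the log2 fold change ran from -1.04 to -0.67 and the adjusted p from 3.2e-04 to 0.435. The call was lost in 9 of the 14: with DESeq2, with a replicate block, with doublets removed, and without either library of Ctrl ZT16 or of cKOt ZT16 or without replicate 1 of Ctrl ZT4 or cKOt ZT4 (adjusted p 0.0509 to 0.435).

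The other bIC genes looked at did not pass. Gm37381 had 93.5, 102, 84.6 and 108 CPM in Ctrl and 91.1, 123, 54.1 and 78.6 in cKOt, with a log2 fold change of -0.21 (SE 0.19, adjusted p = 0.944). Rp1 had 751 to 981 CPM in Ctrl and 658 to 832 in cKOt, with a log2 fold change of -0.21 (adjusted p = 0.830). The bIC markers Slc26a4, Slc4a9, Insrr and Hmx2 had log2 fold changes of -0.15, 0.30, 0.03 and 0.26, and the neighbour Gclc had -0.16, none of which passed. Whether Gm47795 differed from these genes in its genotype effect was not tested.

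**Figure D5:**
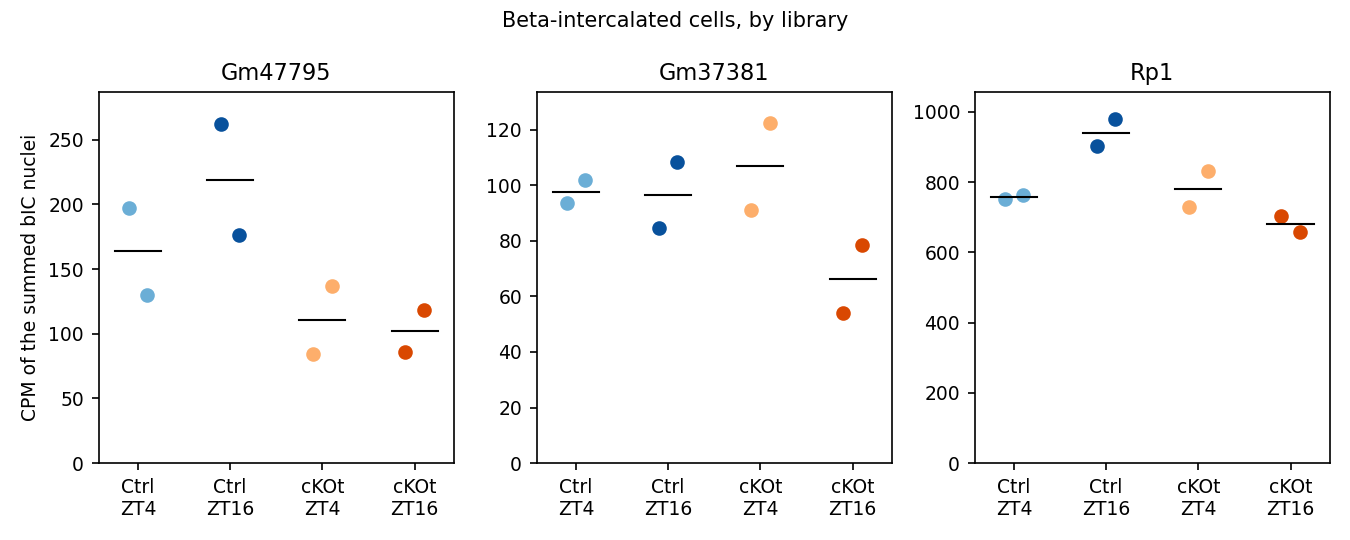
Level (CPM of the summed bIC nuclei, linear axes from 0) of Gm47795, Gm37381 and Rp1 in each library by group, with points for libraries and black lines for group means. For Gm47795 the Ctrl libraries lie at 130 to 262 and the cKOt libraries at 84.5 to 137. For Rp1, too, cKOt ZT4 replicate 2 (832) is the only cKOt library above the lowest Ctrl library (751). The genotypes overlap more for Gm37381.

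In podocytes, which are not part of the targeted tubule, Wt1os had 1232, 1165, 1193 and 1421 CPM in Ctrl and 1011, 891, 1186 and 1164 in cKOt. Its log2 fold change was -0.28 (SE 0.12, adjusted p = 0.966, unadjusted p = 0.0331 by edgeR), and that of Wt1 was -0.14 (adjusted p = 0.975). Of all genes tested in podocytes, 323 of 6935 had an unadjusted p under 0.05 by edgeR. In the thin ascending limb, 4930546K05Rik had a log2 fold change of -0.34 (SE 0.18, adjusted p = 0.745). Mir205hg in the urothelium had 0.15 (SE 0.22, adjusted p = 0.9995), and Gm45895 in the macula densa had -0.45 (SE 0.39, adjusted p = 0.996). All 3 tests miss the limit, and with 1 library left out the sign turned for Mir205hg (-0.03 to 0.37) and Gm45895 (-0.78 to 0.13).

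In the PST the genotypes fell into different clusters. The larger cluster held 173 Ctrl and 2192 cKOt nuclei and the smaller 1688 Ctrl and 37 cKOt nuclei, so a comparison of genotypes there is also one of clusters. 4933421A08Rik had 11.7, 19.8, 20.4 and 11.8 CPM in Ctrl and 8.05, 12.5, 9.58 and 7.19 in cKOt. Its log2 fold change was -0.75 (SE 0.25, adjusted p = 0.227, unadjusted p = 0.0140 by edgeR). Of all genes tested in the PST, 1736 of 14533 had an unadjusted p under 0.05 by edgeR. The partner of 4933421A08Rik on the other strand, Mfsd2a, had 107, 110, 163 and 167 CPM in Ctrl and 46.8, 37.6, 59.1 and 39.6 in cKOt, and fell by 1.51 on the log2 scale (SE 0.15, adjusted p = 5.5e-04 by edgeR). Gm28075 had a log2 fold change of -0.42 (SE 0.46, adjusted p = 0.815) and Gm41162 one of 0.43 (SE 0.42, adjusted p = 0.785), with standard errors as large as the changes. With 1 library left out they ran from -1.12 to -0.04 and from -0.23 to 0.96. The antisense partners Gm28076 and Gm33472 had 0.02 and 0.48 and did not pass.

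Between ZT16 and ZT4, over both genotypes, no home level passed the test. The log2 fold changes were 0.18 for Wt1os, 0.02 for Gm28075, -0.15 for 4933421A08Rik, -0.13 for Gm41162, 0.13 for Gm47795 and 0.26 for Gm45895. The sign of all but that of Wt1os turned when 1 library was left out (-0.39 to 0.74 for Gm28075, -0.35 to 0.09 for 4933421A08Rik, -0.44 to 0.53 for Gm41162, -0.02 to 0.33 for Gm47795 and -0.31 to 0.54 for Gm45895), so no direction is read from them. The largest in size were -0.38 for Gm37381 (SE 0.19, adjusted p = 0.711 by edgeR), 0.35 for 4930546K05Rik (SE 0.18, adjusted p = 0.769) and 0.28 for Mir205hg (SE 0.22, adjusted p = 0.922). A missed limit with 4 libraries per time point does not show that these lncRNAs are the same at both times.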

How the data were processed

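Nuclei from frozen kidneys were sorted by DAPI and made into 10x Genomics 3′ libraries. The authors processed the reads with bcl2fastq 2.20 and Cell Ranger 7.1.0 (the submitters' notes also name Seurat 5), and what they deposited are raw UMI counts per gene for each called nucleus. For the reference, mm10 stands in the methods and GRCm39 in the notes. Coordinates here are RefSeq's on GRCm38.p6, and GENCODE on GRCm39 gave only biotypes, strands, overlaps and distances, matched by Ensembl identifier for all 10 lncRNAs. Neither intron nor strand settings of the counting are stated in the sources at hand.

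The filter of the study (500 genes, 800 UMIs, 2% mitochondrial UMIs) kept 81391 of 82784 barcodes. Scrublet in scanpy 1.11.5 (expected rate 8%) marked doublets, which stayed in. Library pairs shared 18 to 42 barcode sequences. Clusters came from mRNAs alone (Seurat 5.3.0, 2000 variable features, 1000 principal components, 20 neighbours, resolution 2.2). A cluster was named when its marker list had a mean score of 0.9 or more, with 3 markers or more that were 2-fold above other nuclei and in 10% of its own, and when it had 20 nuclei or more and under 50% doublets. For PCT and PST the markers of both lists were counted together, and PST was given only where all 6 PST markers passed, so other clusters led by the PST list were counted as PCT and called mixed. Gini coefficients carry the factor n/(n - 1). Likeness of genes is the Pearson r of mean CPM over 22 cell types, 8 libraries pooled, as a description. It is set mainly by the cell types with the highest level, so genes with the same home tend to score near 1. Intervals are exact 95% binomial and, like limits (3 counts for 0), cover counting error only.

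Counts were summed per library, each library being 1 mouse. All 4 groups entered 1 edgeR 4.0.16 model (TMM, quasi-likelihood, Benjamini-Hochberg, limit 0.05), which kept a gene if some compared group had 5 counts or more in each of its replicates. DESeq2 1.42.0 was the other tool. The scripts were tested on simulated data. The named genes are the 10 lncRNAs, genes that overlap them or lie nearest within 100 kb, the 3 most alike genes, and markers of the homes. Clusters singled out, Pax5, Cd74 and the exchange between PST lncRNAs were chosen after their values were seen. The lncRNAs, lists and comparisons were chosen with earlier results of these data known, and a planned sign-flip test of home against next cell type in cKOt is not given, since all 8 libraries had a part in that choice. Other software was R 4.3.3, Python 3.11.15, numpy 2.4.6, scipy 1.17.1, pandas 2.3.3 and matplotlib 3.10.9.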

Additional observations from a re-analysis of the deposited data

Results flagged for a closer look

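Of 80 sets of 4 libraries of 1 genotype (share in the home, home CPM, Gini coefficient and share of UMIs in the home, for 10 lncRNAs), 5 held a library that stood apart from the other 3 by Dixon's test at 95%. Chance flags about 1 in 20 independent sets, but the 4 measures of a lncRNA are not independent and had a part in its choice, so the count is given as a description. Wt1os was in 97.0% of podocytes in Ctrl ZT4 replicate 2, against 93.5 to 93.8% in the other Ctrl libraries. Gm15987 had 954 CPM in the B cells of Ctrl ZT4 replicate 2, against 1563 to 1668. The Gini coefficient of 4930546K05Rik was 0.947 in Ctrl ZT16 replicate 2, against 0.982 to 0.985, and its share in the thin ascending limb was 27.1% in cKOt ZT16 replicate 1, against 16.7 to 17.1%. That library had the fewest thin ascending limb nuclei, 85. The Gini coefficient of Gm45895 was 0.986 in Ctrl ZT4 replicate 2, against 0.999 to 1.000, where 1 of 67 podocytes was positive. None of these was weighed further.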

How the results depend on the processing

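Of 9 lncRNAs tested within their home between genotypes, 1 passed. With DESeq2, with a replicate block and with doublets removed 0 passed, with no filter beyond 1 count 2 passed (Gm47795 and 4933421A08Rik), and with 1 library left out 0 to 1 passed. For Gm47795 the replicate block gave a log2 fold change of -0.84 and an adjusted p of 0.0509, and doublet removal -0.77 and 0.0688. RLE size factors and a fit of lncRNAs alone kept the call (adjusted p = 0.0427 and 0.0448), as did leaving out replicate 2 of Ctrl ZT4 or of cKOt ZT4 (0.0276 and 0.00859). Its sign held in 14 of 14 alternatives. Whether replicate numbers pair the libraries is not settled. Correlations of same-numbered libraries were -0.0965 to 0.232, over 0.1 in 3 of 6 pairs. They were highest between the genotypes at ZT4 (0.225) and at ZT16 (0.232). The block, which took 1 replicate effect over both time points, changed no other call and cannot decide this. All 116 other counts of calls gave the same answer.

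Among descriptive values, 9 of the 10 had a Gini coefficient of at least 0.95, and 8 to 10 did under alternatives, 9 to 10 with a Ctrl library left out. At resolution 1.0 that of Gm15987 was 0.877. With 50 principal components its share in the home was 51.2%, against 69.6%, and its share of UMIs there 68.9%, against 26.1%. The B cell class was then a wider set of nuclei. After seeing the data, the mixed proximal clusters were also counted as PST, which put 74.0% of the UMIs of Gm28075 in the home and gave Gini coefficients of 0.908 for 4933421A08Rik and 0.939 for Gm41162. Leaving the second cluster out of the thin ascending limb, also added later, raised the share of 4930546K05Rik to 25.6%. Few nuclei limit the B cells (1 to 23 per library) and macula densa (11 to 33), and 4 libraries per genotype limit every test.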
